A study of Mus musculus with 6 samples.

Results

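The subject is 46 genes of the G1/S transition and of DNA replication, measured on arrays of E10.5 mouse embryo hearts. They were listed by function, and each was represented by its brightest probe set, the one with the highest mean log2 signal over all 6 arrays, among probe sets whose annotation names a single gene. All 46 were found among the 18193 genes with such a probe set. All 46 lay above the low-signal limit on every array, a working limit below which 40% of an array's probe sets lie, controls left out, and which came to 44.5 to 52.8. The KO group is 3 heart samples of global RhoE knockout embryos, made by a gene trap in Rnd3, the gene that encodes RhoE. The WT group is 3 heart samples of wild-type embryos. Both share the strain background C57BL/6N and the age, and no treatment is given. Per the series' design text, knockout embryos die at mid-gestation from this age on, and embryos were taken as littermate pairs. The labels do not say whether an array holds 1 heart or several, nor which arrays share a litter, so the p-values measure only the spread between these arrays.

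Cells commit to replicating their DNA late in G1. D-type cyclins with Cdk4 or Cdk6, and then E-type cyclins with Cdk2, phosphorylate the retinoblastoma family, which releases E2F transcription factors and switches on the replication genes. Origins are licensed in G1, when the origin recognition complex, Cdc6 and Cdt1 load the MCM helicase, and they fire in S phase, when Cdc45 and the GINS complex complete the helicase and the polymerases follow. At mid-gestation the heart grows mainly by division of its muscle cells. In other cells, RhoE, which opposes the kinase ROCK1, has been described as restraining the translation of cyclin D1. The arrays measure RNA only, so they do not bear on translation.

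The labels were checked first. Rnd3 read 5.89, 12.3 and 121 on the KO arrays, against 909, 954 and 862 on the WT arrays. All 9 cardiomyocyte markers on the list were above the limit, with a summed signal of 232989 to 263421 in KO hearts and 253189 to 271990 in WT hearts. Xist, the RNA of the inactive X chromosome, read 539, 8884 and 28.4 in KO hearts and 10251, 12474 and 11878 in WT hearts, and 3 Y-linked markers rose. KO arrays 1 and 3 thus stood far below every WT array in Xist, and genotype and sex of the tissue cannot be told apart there. The 3 Y-linked markers were above every WT array on KO array 2 as well. Markers of liver and yolk sac endoderm summed to 314 to 2010 in KO hearts and 1494 to 7272 in WT hearts, and those of foregut epithelium to 2586 to 4850 in KO hearts and 5144 to 5726 in WT hearts. Of these, Alb was lower (-1.97, SE 0.42, adjusted p = 0.049997) and 5 other tested endoderm markers, with log2 fold changes also below 0, did not pass. All 5 foregut markers had values below 0 and none passed. Of the macrophage markers, which summed to 808 to 1816 in KO hearts and 707 to 797 in WT hearts, 1 of 4 tested passed, Lyz2 (1.38, SE 0.25, adjusted p = 0.0374). Lyz2 read 368, 828 and 707 in KO hearts and 261, 203 and 232 in WT hearts, a large part of the KO sums. Csf1r (-0.02), Cd68 (0.09) and C1qb (0.13) did not pass, and 4 of the 6 markers were at their lowest on KO array 3. Endothelial, epicardial, erythroid and neural markers had no member past the test, and erythroid markers summed to 93167 to 105630 in KO hearts and 89865 to 106295 in WT hearts. The Gapdh signal at the 3' end over that at the 5' end, which tracks RNA integrity, was 0.969 ± 0.0274 in KO hearts and 1.11 ± 0.0175 in WT hearts (SD, n = 3 each), with no overlap. The same ratio for Actb was 2.40 ± 0.164 in KO hearts and 2.52 ± 0.147 in WT hearts, with overlap. The part of these differences in the results below was not tested.

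In KO hearts, 1 of the 46 genes, the cyclin gene Ccne2, rose and none fell at an adjusted p of 0.05, from limma with Benjamini-Hochberg adjustment over all 12712 genes tested. The other 45 did not pass. Over all genes tested the share past that threshold was 1.27%, or 162 genes (0.787% higher, 0.488% lower). Most of the 46 differed little: 31 had a log2 fold change under 0.2 in size (67.4%, against 56.3% of all genes tested), and the median over the 46 was -0.03, beside -0.04 over all genes tested. With each array centred on its median over all probe sets these medians were 0.03 and 0.02, and with centring on the genes tested 0.02 and 0.01. Of the 46 values 20 were above 0 and 26 below, or 43.5% above, against 43.8% of all genes tested. The 46 values ran from -0.51 for Cdc45 to 0.50 for Ccne2.

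**Figure D1:**
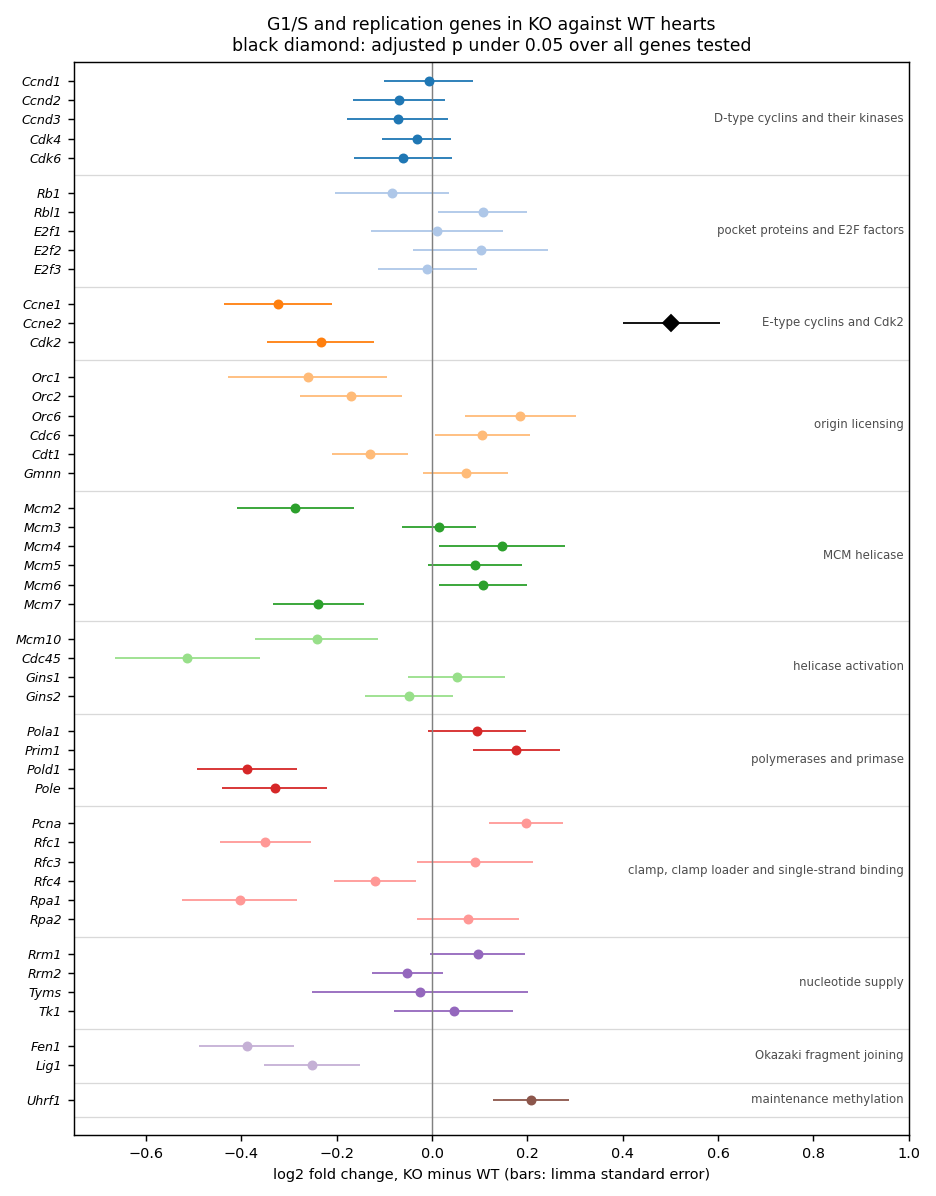
Log2 fold change of each of the 46 genes, KO minus WT (points), with limma's standard error (bars), grouped by role from top to bottom. Ccne2, the black diamond at 0.50, is the gene past the threshold, and the D-type cyclins, their kinases and the E2F genes all lie within 0.11 of 0.

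**Figure D2:**
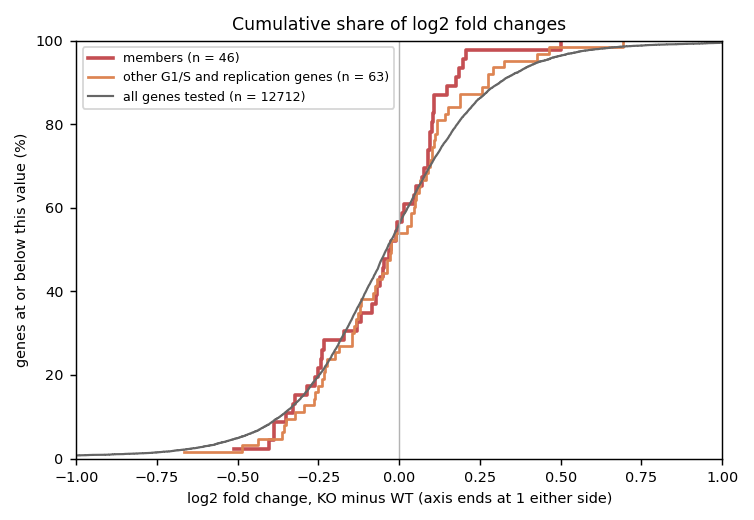
Cumulative share of genes (%) against the log2 fold change, KO minus WT, for the 46 genes, 63 other genes of the same pathway and all 12712 genes tested. The 3 curves cross 50% close together, at medians of -0.03, -0.03 and -0.04.

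In 15 of the 46 the KO and WT arrays did not overlap (32.6%), against 26.3% of all genes tested. In 11 of these 15 the KO arrays were all lower (23.9% of the 46), and in 4 all higher (8.70% of the 46). Over all genes tested 15.5% were all lower and 10.8% all higher. An unadjusted p under 0.05 was reached by 13 of the 46, 3 higher and 10 lower, against 20.3% of all genes (8.54% higher, 11.8% lower). The 11 lower genes were Cdc45, Rpa1, Fen1, Pold1, Rfc1, Pole, Ccne1, Lig1, Cdk2, Orc2 and Rfc4, and the 4 higher ones Ccne2, Uhrf1, Pcna and Prim1. Mcm2 and Mcm7 had an unadjusted p under 0.05 with arrays that overlapped.

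**Figure D3:**
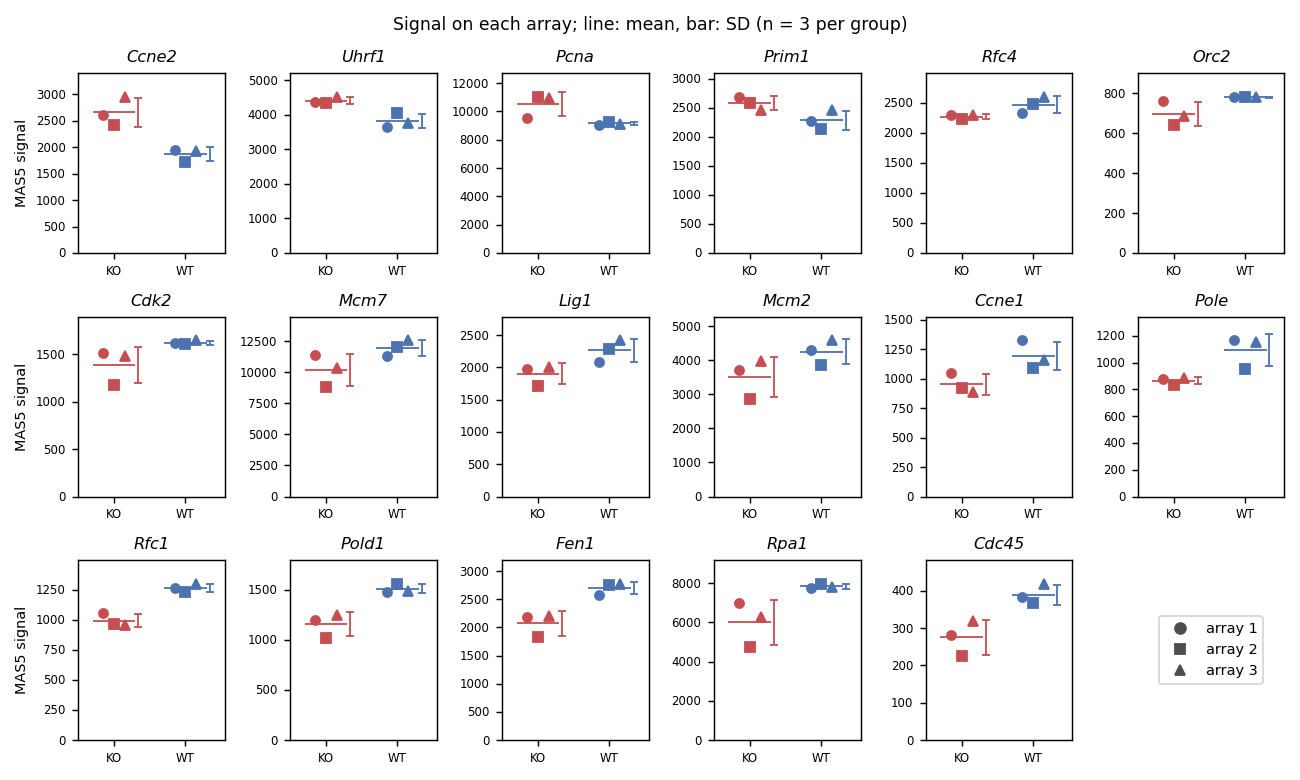
MAS5 signal (linear, from 0) of 17 genes on each KO and WT array, ordered by log2 fold change; points are arrays 1 to 3, lines are means and bars SD (n = 3 per group). In Ccne2, Uhrf1, Pcna and Prim1 the KO points all lie above the WT points, and in 11 other genes all below.

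D-type cyclins and their kinases, which carry growth signals into the cycle, stood close to 0. Ccnd1, the gene of cyclin D1, read 4879, 4606 and 4990 in KO hearts, against 4855, 4327 and 5416 in WT hearts. The KO arrays lay inside the WT range, with a log2 fold change of -0.01 (SE 0.09, adjusted p = 0.978). Its other probe sets had 0.15 and -0.27, that at -0.27 lower on every KO array, and did not pass on their own. Ccnd2, another D-type cyclin, averaged 18073 ± 2518 in KO hearts and 18839 ± 903 in WT hearts (SD, n = 3 each), and its 7 probe sets had values from -0.13 to 0.14. Ccnd3 had -0.07 (SE 0.11), Cdk4 -0.03 (SE 0.07) and Cdk6 -0.06 (SE 0.10), and none of these 5 genes passed (adjusted p from 0.730 to 0.978).

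The pocket proteins and E2F factors, the switch that these kinases act on, did not pass either. Rb1, the retinoblastoma gene, had a log2 fold change of -0.08 (SE 0.12), and Rbl1, which encodes its relative p107, 0.11 (SE 0.09). The activator genes E2f1, E2f2 and E2f3 had 0.01 (SE 0.14), 0.10 (SE 0.14) and -0.01 (SE 0.10), and the adjusted p of the 5 genes ran from 0.560 to 0.979. E2f1 read 368, 341 and 378 in KO hearts and 306, 384 and 396 in WT hearts. The KO arrays lay within the spread of the WT arrays.

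Many replication genes are known targets of E2F factors, so the promoter sequences were searched for E2F-type words. RefSeq promoters (GRCm38.p6, 250 bases before to 50 bases after each gene's start, 300 bases) were found for 37 of the 46 genes, Ccne2 not among them. The words were TTTCCCGC, TTTCGCGC, TTTGCCGC and TTTGGCGC on either strand. They occurred in 16 of the 37 genes, or 43.2%, against 2.61% of the 27025 genes in the table. For comparison, CCAAT occurred in 64.9% against 41.1% and the GC box GGGCGG in 75.7% against 38.2%, and these shorter words can overlap the others. A word is a match of letters and not a shown binding site. The 16 genes with an E2F-type word had a median log2 fold change of 0.05, from -0.39 to 0.21, and the 21 without one -0.06, from -0.51 to 0.20. Groups did not overlap in 4 of the 16 and in 9 of the 21, beside 26.3% of all genes tested, and the difference between the 2 sets was not tested. The promoters of those 4 genes, Uhrf1 with higher and Cdk2, Pold1 and Lig1 with lower KO arrays, are shown 5′ to 3′. The E2F-type word is in capitals. They set side by side genes that hold such a word and differ in the side on which their KO arrays lie. The word, on either strand, is TTTCGCGC in Uhrf1 and Lig1 and TTTCCCGC in Cdk2 and Pold1. The Uhrf1 window is chr17:56304063-56304362 (plus strand), that of Cdk2 chr10:128705002-128705301 (minus strand), that of Pold1 chr7:44548766-44549065 (minus strand) and that of Lig1 chr7:13278576-13278875 (plus strand).
Uhrf1 promoter: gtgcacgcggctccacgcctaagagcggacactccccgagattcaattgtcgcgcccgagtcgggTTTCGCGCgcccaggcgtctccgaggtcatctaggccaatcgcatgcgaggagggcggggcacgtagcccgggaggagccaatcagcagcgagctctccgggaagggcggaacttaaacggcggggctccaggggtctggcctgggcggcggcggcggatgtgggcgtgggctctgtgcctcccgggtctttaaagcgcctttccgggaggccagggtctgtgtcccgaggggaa
Cdk2 promoter: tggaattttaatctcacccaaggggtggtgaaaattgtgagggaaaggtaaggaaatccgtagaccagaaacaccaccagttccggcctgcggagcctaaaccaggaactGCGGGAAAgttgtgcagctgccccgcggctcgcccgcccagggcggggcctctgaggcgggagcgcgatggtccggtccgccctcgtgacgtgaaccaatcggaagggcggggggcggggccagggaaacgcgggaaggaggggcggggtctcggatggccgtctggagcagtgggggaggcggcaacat
Pold1 promoter: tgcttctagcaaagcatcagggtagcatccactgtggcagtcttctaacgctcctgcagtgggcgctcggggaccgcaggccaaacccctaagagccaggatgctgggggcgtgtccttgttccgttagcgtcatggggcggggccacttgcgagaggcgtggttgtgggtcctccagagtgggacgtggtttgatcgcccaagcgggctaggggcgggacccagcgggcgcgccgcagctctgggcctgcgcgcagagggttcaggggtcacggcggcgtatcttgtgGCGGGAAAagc
Lig1 promoter: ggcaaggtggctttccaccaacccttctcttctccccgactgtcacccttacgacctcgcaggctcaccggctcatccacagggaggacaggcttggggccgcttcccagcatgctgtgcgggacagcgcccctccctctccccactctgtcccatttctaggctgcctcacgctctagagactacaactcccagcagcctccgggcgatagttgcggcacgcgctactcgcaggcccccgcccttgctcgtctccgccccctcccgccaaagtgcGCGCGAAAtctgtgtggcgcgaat
In Uhrf1 and Cdk2 the word begins 185 and 140 bases before the annotated start, and in Pold1 and Lig1 it lies after the start. Lig1 has 3 windows in the table and Uhrf1 has 2, of which 1 each held a word.

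The E-type cyclins, which drive entry into S phase with Cdk2, held the gene past the test. Ccne2, the gene of cyclin E2, read 2599, 2415 and 2953 in KO hearts, against 1952, 1727 and 1936 in WT hearts. Every KO array lay above every WT array, and Ccne2 rose 1.42-fold, or 0.50 on the log2 scale (SE 0.10, adjusted p = 0.0455 by limma). KO array 2, the one KO array with Xist near the WT level, was the lowest KO array in Ccne2. It was still above the highest WT array. Its Y-linked markers Eif2s3y, Uty and Kdm5d read 793, 297 and 335, above the highest WT values of 551, 192 and 212. By these markers KO array 2 was not matched to WT in the sex of the tissue. With Xist as a covariate, a fit that rests on KO array 2 (weight 1.26 against -0.09 and -0.17 for KO arrays 1 and 3), Ccne2 had 0.28 (adjusted p = 0.290). The call also depended on single arrays: it was missed without WT array 1, 2 or 3 (adjusted p = 0.162, 0.209 and 0.120) or KO array 3 (adjusted p = 0.145). Over 19 alternatives its value stayed above 0, from 0.28 to 0.57, and its adjusted p ran from 0.0143 to 0.290. Several of these, among them other filters and another threshold, cannot move the value and change only its adjusted p or its call. The array has a single probe set for Ccne2.

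Ccne1, which encodes cyclin E1, lay on the other side of 0. It read 1051, 920 and 884 in KO hearts and 1326, 1090 and 1157 in WT hearts. All KO arrays were lower, with a log2 fold change of -0.32 (SE 0.11, unadjusted p = 0.0160), which did not pass. Its other probe set had -0.06, with overlapping groups. An exact permutation of the array labels gave p = 0.1 for the difference between the 2 genes (0.82 on the log2 scale). That is the smallest p its 20 relabellings allow, so this test could not decide the question. Cdk2, the kinase partner of both cyclins, read 1514, 1174 and 1476 in KO hearts and 1613, 1605 and 1647 in WT hearts. Its KO arrays were lower without overlap, KO array 2 by the most, and the value of -0.23 (SE 0.11, adjusted p = 0.265) did not pass. Without that array it was -0.12.

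Genes of origin licensing had no member past the test. Orc2, a subunit of the origin recognition complex, read 759, 641 and 684 in KO hearts, against 782, 779 and 778 in WT hearts. The WT arrays were nearly equal and the KO arrays all lower (-0.17, SE 0.11, adjusted p = 0.403). Its 2 further probe sets had 0.24 and -0.26, so the direction was not shared by all. Orc1 had -0.26 (SE 0.17) and Orc6 0.19 (SE 0.12). A second Orc1 probe set, dim and near the low-signal limit, had -1.10 (SE 0.82) and did not pass on its own. It read 48.2, 90.5 and 6.17 in KO hearts and 57.1, 89.9 and 51.7 in WT hearts. Cdc6, which helps load the helicase, had 0.11 (SE 0.10), and Cdt1, its loading partner, -0.13 (SE 0.08). A second Cdt1 probe set went the other way, with 1376, 1483 and 1685 in KO hearts and 1270, 1136 and 1248 in WT hearts (0.31, adjusted p = 0.170 over all probe sets). Gmnn, the gene of the Cdt1 inhibitor geminin, had 0.07 (SE 0.09).

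The 6 subunits of the MCM helicase, which act as 1 ring, did not share a direction in their brightest probe sets. Mcm2 read 3724, 2851 and 3962 in KO hearts and 4306, 3866 and 4585 in WT hearts, and Mcm7 read 11407, 8803 and 10378 in KO hearts and 11322, 12003 and 12584 in WT hearts. In both genes KO array 2 was the lowest of all arrays and the groups overlapped. Mcm2 had -0.29 (SE 0.12, adjusted p = 0.221) and Mcm7 -0.24 (SE 0.10, adjusted p = 0.192), and without KO array 2 both had -0.14. A further Mcm2 probe set had -0.21 with all KO arrays lower, while those of Mcm7 had 0.14, 0.08 and -0.22. Mcm3, Mcm4, Mcm5 and Mcm6 had values from 0.01 to 0.15, and none passed. The 4 further tested Mcm3 probe sets had values from -0.13 to -0.05, and that of Mcm4 had -0.06. Those of Mcm5 had 0.19 and -0.06, and that of Mcm6 had 0.06. The sign in Mcm3, Mcm4 and Mcm5 thus differed between probe sets.

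Among the factors that activate the helicase, Cdc45 had the lowest value of all 46 genes. Its product joins the MCM ring and GINS to form the working helicase. Cdc45 read 281, 226 and 319 in KO hearts, against 383, 367 and 419 in WT hearts. No KO array reached the lowest WT array, and the log2 fold change of -0.51 (SE 0.15) missed the threshold (adjusted p = 0.0994). Its dimmer probe set had -0.12 with overlapping groups. Mcm10, which helps the helicase start, had -0.24 (SE 0.13, adjusted p = 0.319). Gins1 had 0.05 (SE 0.10) and Gins2 -0.05 (SE 0.09), both subunits of GINS.

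The polymerase genes did not share a direction. Pold1, the catalytic subunit of polymerase delta, which copies mainly the lagging strand, read 1202, 1022 and 1252 in KO hearts and 1480, 1561 and 1493 in WT hearts. Pole, that of polymerase epsilon, which copies mainly the leading strand, read 876, 835 and 887 in KO hearts and 1167, 955 and 1156 in WT hearts. Both were lower on every KO array without passing, Pold1 at -0.39 (SE 0.10, adjusted p = 0.0820) and Pole at -0.33 (SE 0.11, adjusted p = 0.131). The other Pold1 probe set had -0.28, with overlapping groups. The genes that start each strand had values above 0. Prim1, the catalytic primase subunit, read 2689, 2588 and 2462 in KO hearts and 2266, 2128 and 2460 in WT hearts. The closest arrays of the groups nearly met, at 2462 and 2460, and neither Prim1 (0.18, SE 0.09, adjusted p = 0.301) nor Pola1 (0.09, SE 0.10), the polymerase alpha subunit, passed. The other Prim1 probe set had -0.01.

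The sliding clamp, its loader and the single-strand binding proteins were likewise mixed. Pcna, the clamp, read 9534, 11046 and 10949 in KO hearts and 9071, 9259 and 9127 in WT hearts. All KO arrays were higher, by a small step on KO array 1 (0.20, SE 0.08, adjusted p = 0.185). Rfc1, the large subunit of the clamp loader, read 1055, 963 and 958 in KO hearts and 1264, 1227 and 1298 in WT hearts. The gap was wider than the spread within either group (-0.35, SE 0.10, adjusted p = 0.0861), but its 2 other probe sets had 0.04 and 0.10. Rpa1, the large subunit of the single-strand binding complex RPA, read 6968, 4761 and 6281 in KO hearts and 7752, 7973 and 7803 in WT hearts. The WT arrays were close together and the KO arrays spread out below them (-0.40, SE 0.12, adjusted p = 0.0997). A second Rpa1 probe set had -0.23. Rpa2 had 0.08 (SE 0.11) and Rfc3 0.09 (SE 0.12).

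Rfc4, another clamp loader subunit, and Gins2 each had a second probe set that rose while the brightest one did not pass. The brightest Rfc4 probe set read 2291, 2224 and 2287 in KO hearts and 2323, 2476 and 2598 in WT hearts (-0.12, SE 0.09, adjusted p = 0.469). Its other probe set read 2663, 2853 and 2700 in KO hearts and 1786, 1742 and 1915 in WT hearts. The first was slightly lower and the second clearly higher on every KO array. In a fit of all probe sets singly, the second rose by 0.59 (SE 0.09, limma adjusted p = 0.0342). The Gins2 probe set not chosen read 956, 970 and 994 in KO hearts and 681, 624 and 641 in WT hearts, and it rose by 0.59 (SE 0.10, adjusted p = 0.0414). The chosen Gins2 probe set read 1696, 1593 and 1760 in KO hearts and 1843, 1723 and 1656 in WT hearts, which overlap. These were the 2 of 96 tested probe sets of the 46 genes past the threshold in that fit, against 0.63% of 23339 probe sets, and Ccne2 missed it there (adjusted p = 0.0584). Both were picked out after their values were seen. For the difference between probe sets, 0.71 in Rfc4 and 0.63 in Gins2, an exact permutation of the array labels gave p = 0.1 in each. That is the smallest p its 20 relabellings allow, so this test could not decide the question. Where the probe sets lie on the transcripts was not analysed here.

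**Figure D4:**
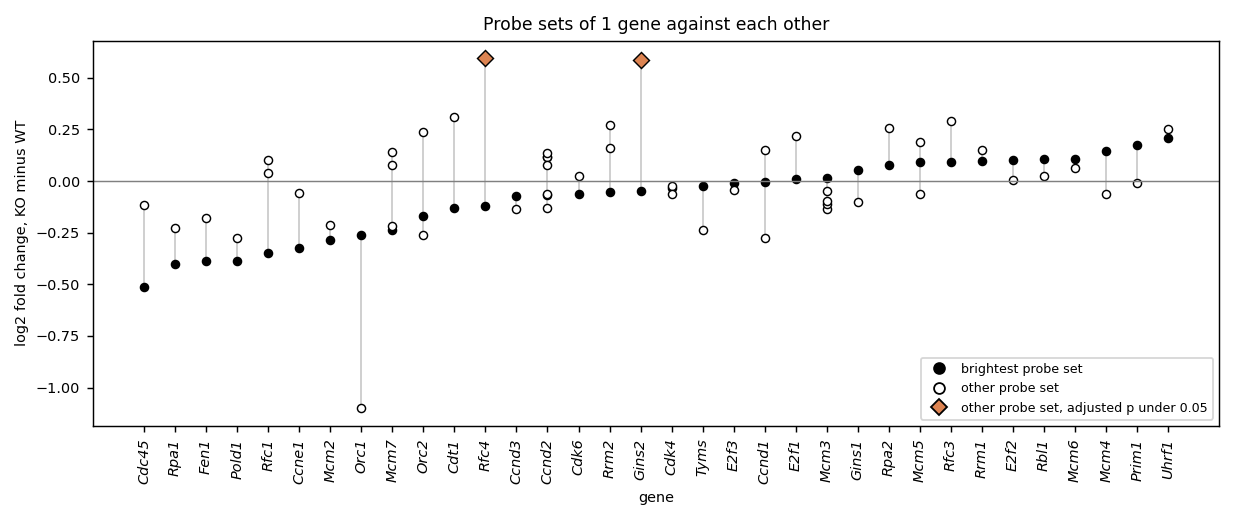
Log2 fold change, KO minus WT, of each tested probe set for the 34 genes with several; black points are the brightest probe set, open points the others, and orange diamonds those with an adjusted p under 0.05 on their own. The second probe sets of Rfc4 and Gins2, both at 0.59, lie apart from the brightest ones, at -0.12 and -0.05.

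Over the 34 genes with several tested probe sets, 26 of the 50 further probe sets had the same sign as the brightest one and 24 the opposite, in 15 genes. The sign was shared in Cdc45, Rpa1, Fen1, Pold1, Ccne1, Mcm2 and Uhrf1. It was also shared in Ccnd3, Cdk4, E2f1, E2f2, E2f3, Mcm6, Orc1, Rbl1, Rfc3, Rpa2, Rrm1 and Tyms. Of the chosen probe sets 7 bear the suffix _x_at (Cdk4, Ccne1, Mcm4, Mcm5, Pold1, Rrm2 and Fen1) and 5 the suffix _s_at (Mcm2, Mcm3, Mcm7, Gins2 and Rfc4). In the array's naming these can also bind other transcripts, so their signals are less certain.

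No gene of nucleotide supply passed the test. Rrm1 and Rrm2, the subunits of ribonucleotide reductase, had 0.10 (SE 0.10) and -0.05 (SE 0.08). The other Rrm2 probe sets, 0.27 and 0.16, were higher on all KO arrays and did not pass on their own. Tk1, thymidine kinase, had 0.05 (SE 0.13). Tyms, thymidylate synthase, read 98.4, 121 and 114 in KO hearts and 120, 126 and 94.8 in WT hearts. The groups overlapped, and its value of -0.03 had the widest error of the 46 (SE 0.23).

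Both genes of Okazaki fragment joining were lower on all KO arrays in their brightest probe sets. Fen1, the nuclease that trims the flaps between fragments, read 2195, 1823 and 2202 in KO hearts, against 2585, 2756 and 2777 in WT hearts. Lig1, the ligase that seals them, read 1984, 1720 and 2006 in KO hearts and 2079, 2290 and 2422 in WT hearts. The gap was wide in Fen1 (-0.39, SE 0.10, adjusted p = 0.0701) and narrow in Lig1 (-0.25, SE 0.10, adjusted p = 0.192), and neither passed. A second Fen1 probe set had -0.18 with overlapping groups. Uhrf1, which keeps DNA methylation on the copied strand, read 4353, 4324 and 4518 in KO hearts and 3655, 4036 and 3745 in WT hearts. It was higher on all KO arrays (0.21, SE 0.08, adjusted p = 0.177). Its dimmer probe set had 0.25 with overlapping groups.

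KO array 2 was the lowest of the 6 arrays in 20 of the 46 genes, or 43.5%, against 26.3% of all genes tested. KO array 1 was lowest in 1 and KO array 3 in 4. Of the 11 genes with all KO arrays lower, KO array 2 was the lowest in 9, or 81.8%, beside 56.0% of the 1974 such genes among all tested. Without KO array 2 these 11 genes had values from -0.38 to -0.11, beside -0.51 to -0.12 with it, and Rpa1 had -0.25 and Orc2 -0.11. On KO array 2, 7 of the 9 cardiomyocyte markers were at their lowest of the 6 arrays, with a sum of 232989 against 263421 and 251467 on the other KO arrays and 253189 to 271990 in WT hearts. All 5 epicardial and mesenchymal markers were at their highest there, with a sum of 12495 against 9190 and 8521 on the other KO arrays and 9084 to 10128 in WT hearts. All 6 macrophage markers, 4 of them bright enough to be tested, were also highest on KO array 2. They summed to 1816 there, against 808 and 1051 on the other KO arrays and 707 to 797 in WT hearts. The foregut markers summed to 2586 there, against 4850 and 4172 on the other KO arrays, with 2 of 5 at their lowest. In bulk tissue, fewer cells of a type and less RNA per cell cannot be told apart. Their part in the lower values was not tested. With Xist as a covariate, the fit resting on KO array 2, 6 of the 46 genes were lower past the threshold, against 4.04% of all genes: Rpa1 (-0.83), Mcm2 (-0.71), Cdc45 (-0.90), Pold1 (-0.62), Fen1 (-0.62) and Cdk2 (-0.55), with adjusted p from 0.0112 to 0.0488. The median of the 46 was then -0.11, beside -0.02 over all genes.

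**Figure D5:**
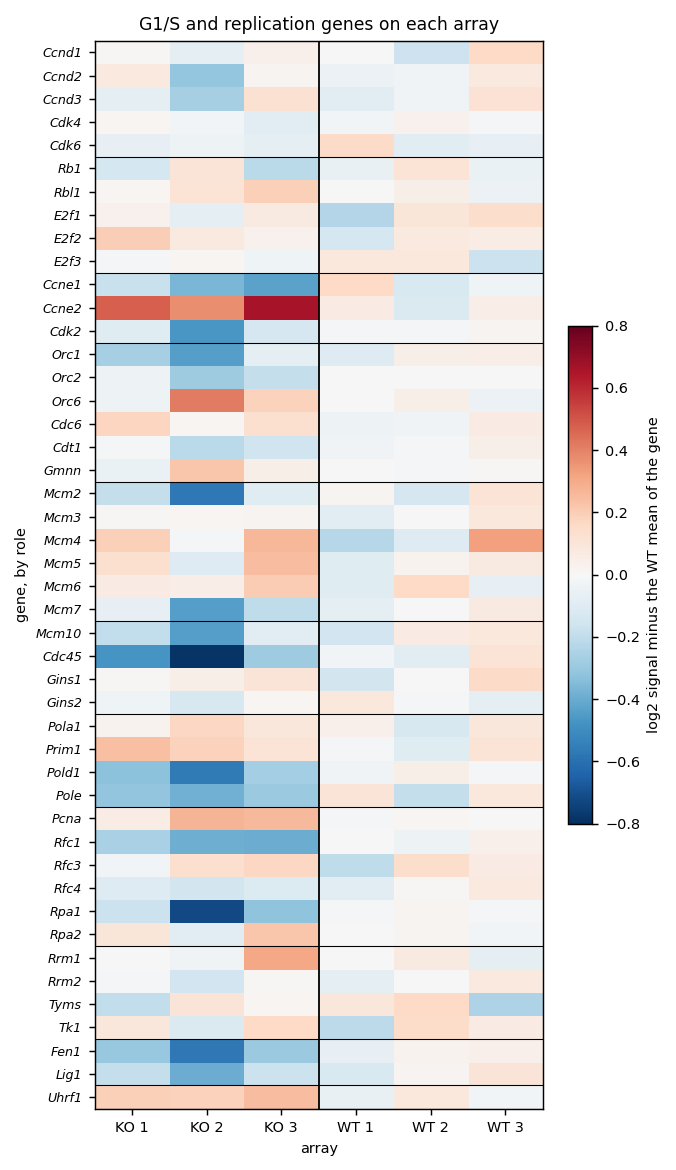
Log2 signal of each of the 46 genes on each array minus the mean of the gene's WT arrays (colour scale from -0.8, blue, to 0.8, red), with KO arrays left of the line and genes grouped by role. KO array 2 is the bluest column, lowest in 20 genes, and Ccne2 is red on all 3 KO arrays.

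Of 66 further genes of the pathway, listed by function, 64 had a probe set and 63 were tested. One, E2f6, rose, none fell and 62 did not pass (median -0.03). E2f6, an E2F factor that represses, read 1284, 1523 and 1503 in KO hearts, against 940, 937 and 789 in WT hearts. The groups did not overlap, and E2f6 changed by 0.69 on the log2 scale (SE 0.11, adjusted p = 0.0353 by limma), while a dim second probe set had -0.09. The next smallest p-values belonged to Gins4 (0.46, adjusted p = 0.0507), Cdkn1b (-0.44, adjusted p = 0.0609), Orc5 (-0.49), Rpa3 (0.29) and Nasp (-0.36). Cdkn1b encodes the Cdk inhibitor p27 and read 1582, 1480 and 1438 in KO hearts and 2048, 1813 and 2259 in WT hearts. Its KO arrays were all lower. Gins4 is a GINS subunit, Orc5 an origin recognition subunit, Rpa3 the small RPA subunit and Nasp a histone chaperone. Groups did not overlap in 24 of the 63 genes, 10 higher and 14 lower, or 38.1% against the 26.3% of all genes tested. The E2f6 call was missed when any WT array or KO array 3 was left out.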

How the data were processed

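Heart RNA of E10.5 embryos, 3 KO and 3 WT, was hybridised as biotin-labelled cRNA to 1 Affymetrix mouse expression array each. The authors deposited a linear signal intensity for each probe set. The submitters' processing notes name MAS5 and Expression Console, with no version or setting. With 2% of values trimmed from either end, every array averages 500, and the signals were left on that scale. Of 45037 probe sets besides 64 controls, 34945 carry 1 gene symbol, 932 several and 9160 none. Gene identifiers of 34741 were found in the RefSeq gene table, and 0 symbols changed.

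Signals were taken to log2. A gene was tested if its brightest probe set exceeded the low-signal limit on at least 3 arrays, which left 12712 genes. KO minus WT was fitted by lmFit and eBayes (limma 3.58.1, R 4.3.3), the prior variance following intensity, and p-values were adjusted by Benjamini-Hochberg, with 0.05 as the threshold. SE is limma's standard error of a log2 fold change, and 3 arrays per group limit the precision. The procedure was tested on simulated data. The 46 genes, the further pathway genes, the marker lists and the alternatives were chosen with earlier results of these data known. All 46 genes are named, with every array's value where the p was under 0.05 or the groups did not overlap and for some others, and of the further genes those past the threshold and those with the 6 smallest p. Values by array of Ccnd1, E2f1, Tyms and probe sets not chosen were added after they were seen.

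The replicate numbers were checked for pairing. Deviations from the group means of same-numbered arrays correlated at 0.02, 0.06 and 0.02, and those of differently numbered arrays at -0.04 to 0.02. With 3 arrays per group this check cannot exclude littermate pairs. The numbers were not treated as pairs, and the fit with the replicate block is given as an alternative. Figures were drawn with matplotlib 3.10.9.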

Additional observations from a re-analysis of the deposited data

How the results depend on the processing

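The count of genes past the threshold rested on the processing. Over all genes tested it was 162, against 83 with median centring (80.7% of them higher in KO, beside 61.7%), 312 with centring on the tested genes (81.1% higher), which was chosen after seeing the data, 1 with dim probe sets kept, 291 with the stricter filter, 0 with a gene's probe sets averaged, 1 without the intensity trend, 542 with array weights, 819 with the Xist covariate and 805 at an adjusted p threshold of 0.1. Leaving out 1 array gave 0 to 916 (916, 65 and 2 without KO array 1, 2 or 3, and 0, 0 and 4 without WT array 1, 2 or 3). Of the 46 genes 1 passed, against 0 with median centring, without the filter, with averaged probe sets and without the trend, 2 with every probe set on its own and with array weights, 6 with the Xist covariate and at a threshold of 0.1, and 0 to 4 leaving out 1 array. Of the further pathway genes 1 passed, against 2 with quantile normalization and with centring on the tested genes, 3 with the stricter filter, 4 with array weights and with the Xist covariate, 6 at a threshold of 0.1, 0 without the filter, with averaged probe sets and without the trend, and 0 to 6 leaving out 1 array. Where no gene passed, limma gave an unadjusted p under 0.05 to 1720 to 1944 of all genes, 8 to 14 of the 46 and 6 to 15 of the further genes. The cause of these shifts was not tested. With the replicate block, 189 of all genes and 1 of the 46 passed, and no call among the 46 changed. Of 873 single-gene values under 19 alternatives, 792 kept their sign and their side of the threshold. Of the rest, 56 in 23 genes changed sign without a call on either side. Another 15 passed where they had not, and 10, all of Ccne2, no longer passed. Other filters, the threshold of 0.1, the fit without the trend and the replicate block leave a gene's log2 fold change as it was. Under these its sign could not change, so the 792 include signs that were fixed in advance. MAS5 gives no replicate measure of signal over background here, so the limit on dim genes is the working one.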
